A study of Mus musculus with 6 samples.

Results

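Cadherins are membrane proteins that hold neighbouring cells together in a calcium-dependent way. Type I and type II classical cadherins bind beta-catenin through their cytoplasmic tails and so connect the contact to actin, whereas the non-clustered protocadherins of the delta groups signal through other tail partners, the WAVE actin regulators among them. In the brain both kinds of protein help neural precursors keep to their niche and help neurons and glia sort into layers and form synapses. The genes described here are those with a symbol of Cdh or Pcdh followed by a number alone. On the arrays 34 such genes were measured among 19937 genes in all, 23 named Cdh and 11 named Pcdh. The symbol brings in 5 Cdh genes that are not classical cadherins (Cdh13, Cdh16, Cdh17, Cdh23 and Cdh26) and leaves out the delta-1 protocadherin Pcdh11x, which is given below with related genes.

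The RNA came from primary neurospheres, the floating colonies that precursor cells form in culture, grown from the hippocampus of male C57BL/6J mice aged 8 to 12 weeks in medium with EGF and bFGF. One group was grown with 10 µM norepinephrine (N) and the other with 15 mM potassium chloride (K), both to day 14, with 3 arrays each. The arrays hold no untreated neurospheres, and a value therefore shows N against K and not which treatment moved a gene. The labels call the samples biological replicates of small neurospheres and do not say whether they came from separate animals, so p-values measure the spread between these samples. The arrays were Affymetrix Mouse Gene 1.0 ST, which read each transcript through probes placed along its length. Each value is a log2 signal summarised by the authors with the RMA method, so a difference of 1 stands for a 2-fold change. All differences are N minus K (log2FC) from a limma fit of the whole table, and p was adjusted over its 19937 genes by the method of Benjamini and Hochberg. An exact permutation test of 3 arrays against 3 cannot go below p = 0.1 and was not used.

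The array medians lay between 6.30 and 6.40. K replicate 3 had the lowest mean correlation with the arrays of its group (r = 0.948 across clusters, which are not independent), while the mean correlation of K replicates 1 and 2 was higher with N than within K. Of 7 measured precursor markers 6 lay above the median signal of all transcript clusters, 6.34, with Sox2 and Fabp7 among them, whereas all 8 endothelial markers lay below it. The astrocyte markers moved with the groups: 8 of 9 had a positive log2FC, and their mean signal was 8.16 to 8.58 on the N arrays and 7.66 to 7.76 on the K arrays. Gfap, the intermediate filament gene of astrocytes, passed over all genes with a log2FC of 1.66 (adjusted p = 0.0358 from limma), the only one of the 9 to do so. In bulk RNA fewer cells of a type and less RNA per cell cannot be told apart. The part of the astrocyte markers in the results below was not tested.

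Cdh13 and Pcdh15 had the largest positive differences among the 34 genes and Cdh2 and Pcdh19 the largest negative ones, each of them under 2-fold. None of the 34 passed an adjusted p of 0.05 in limma, which 0.155% of all genes did, 0.12% higher and 0.0351% lower with N. At an unadjusted p under 0.05 there were 4 of the 34 (11.8%), against 8.54% of all genes. Of these, 2 were higher with N (Cdh13 and Pcdh15, against 4.64% of all genes) and 2 were lower (Cdh2 and Pcdh19, against 3.89%). Pcdh15 counts here through a cluster that was chosen by its high N values, and its other cluster had a log2FC of 0.07. The median log2FC over the 34 genes was -0.06, and over all genes it was -0.03. The log2FC was positive for 11 of the 34 (32.4%), against 43% of all genes, and negative for 23, which became 19 with arrays centred on their medians. In 10 of the 34 genes the 3 arrays of one group all lay above those of the other, against 13.3% of all genes. Of these 10, 8 were lower with N (7.55% of all genes) and 2 were higher with N (5.78% of all genes). The 8 were Cdh2, Cdh4, Cdh9, Cdh12, Cdh22, Pcdh1, Pcdh8 and Pcdh19, of which Cdh9, Cdh12, Pcdh1 and Pcdh8 lay below the median signal. In some the gap was narrow beside the spread of the array medians, from 6.30 to 6.40. The highest N and lowest K values were 8.53 and 8.58 for Cdh4 and 3.58 and 3.60 for Cdh9. They were 5.58 and 5.61 for Pcdh1 and 5.57 and 5.63 for Pcdh8. This count was not repeated with arrays centred on their medians. The 95% interval of the log2FC lay within -1 and 1 for 32 of the 34, against 18862 of the 19937 genes in all. It lay within -0.5 and 0.5 for 18, a share of 52.9% against 56.1% of all genes. Most of these 18 were dim, with 13 of the 17 members below the median signal. Of the 17 members above it 5 were within -0.5 and 0.5 (29.4%), against 49.4% of all genes above it. The exceptions to the wider bound were Cdh13, whose interval reached 1.09, and Cdh19, whose interval ran from -1.13 to 0.60.

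**Figure D1:**
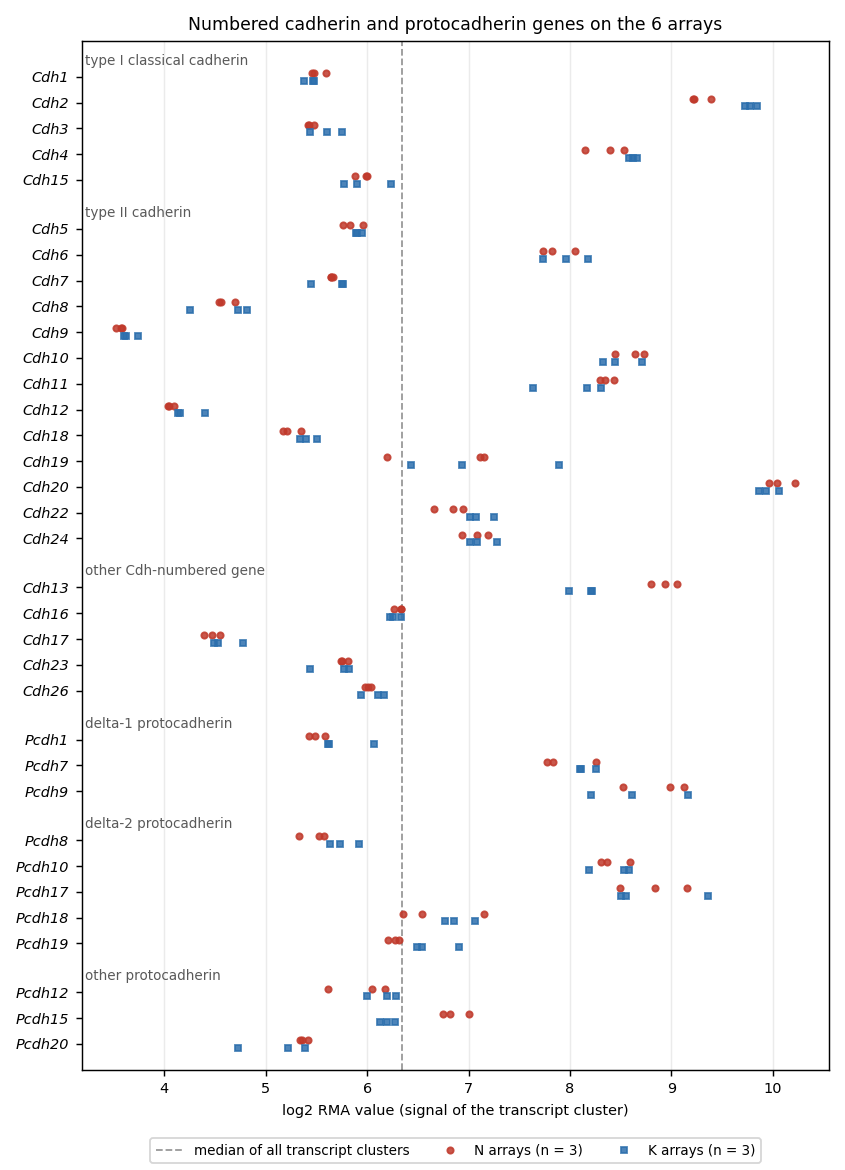
Signal of the 34 genes on each array as log2 RMA values on the horizontal axis, grouped by class, with N arrays as circles and K arrays as squares (n = 3 each) and the median of all transcript clusters, 6.34, as a dashed line. Cdh13 and Pcdh15 have all N arrays to the right of the K arrays, Cdh2 and Pcdh19 all N arrays to the left, and 17 of the 34 genes lie below the dashed line on average.

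RefSeq promoters (GRCm38.p6) were on hand for 22 of the 34 genes, 25 promoters in all. Cdh13 and Cdh2 were not among the 22, so the motif shares below do not cover them. Among the 4 genes with an unadjusted p under 0.05, sequences are shown for Pcdh15, higher with N, and for Pcdh19, lower with N, so that the windows before their starts can be read beside their values. Each is the 250 bases before the annotated start, 5′ to 3′ on the strand of the gene. The Pcdh15 window is chr10:73821617-73821866 on the plus strand, and the Pcdh19 window is chrX:133688994-133689243 on the minus strand. Each ends at a start that lies inside the annotated extent of its gene. The Pcdh15 start lies far inside that extent (73096277 to 74649831), so its window is not that of the outermost start. The Pcdh19 start lies close to the 5′ end of its gene, at 133689044. Capitals mark matches to the motifs searched.
Pcdh15: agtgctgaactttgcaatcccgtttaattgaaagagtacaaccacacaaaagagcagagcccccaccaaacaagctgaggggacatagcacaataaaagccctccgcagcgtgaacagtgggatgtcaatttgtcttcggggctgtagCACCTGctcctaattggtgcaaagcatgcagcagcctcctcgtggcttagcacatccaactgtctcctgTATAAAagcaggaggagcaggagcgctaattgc
Pcdh19: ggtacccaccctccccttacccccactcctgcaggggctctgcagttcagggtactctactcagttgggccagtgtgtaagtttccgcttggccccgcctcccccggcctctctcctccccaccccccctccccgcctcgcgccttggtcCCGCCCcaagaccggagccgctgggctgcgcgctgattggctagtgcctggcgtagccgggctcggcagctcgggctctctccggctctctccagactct
The motifs were searched on both strands: the full cAMP response element TGACGTCA, its short core TGACG, which the full element contains, the E-box CAGGTG, the GC box GGGCGG and the TATA box TATAAA. The Pcdh15 window held 1 E-box, shown as CACCTG because CAGGTG lies on the other strand, and 1 TATA box, and its GC content was 50.4%. The Pcdh19 window held 1 GC box, read as CCGCCC, and its GC content was 69.2%. The full cAMP response element was in 0 of the 25 member promoters and in 1.55% of all 32851 promoters. The short core was in 4 of the 25 (Cdh8, Pcdh10 and both Pcdh9 promoters), or 16%, against 17.8% of all promoters. The E-box was in 3 (12% against 17.2%), the GC box in 9 (36% against 32.7%) and the TATA box in 2 (8% against 12.4%), Pcdh15 and Pcdh8. A match is a run of letters and not a measured binding site.

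Cdh13 encodes T-cadherin, which is held to the membrane by a GPI anchor, has no cytoplasmic tail and binds adiponectin. It lies at chr8:118140017-119324929. Its values were 8.80, 8.93 and 9.05 on N replicates 1, 2 and 3 and 8.21, 8.21 and 7.99 on K replicates 1, 2 and 3. Every N array lay above every K array, and the gap between the groups was wider than the range within either. The means were 8.93 ± 0.13 with N and 8.14 ± 0.13 with K (SD, n = 3 arrays each). The log2FC of 0.79 (standard error 0.13) is a 1.73-fold difference with a 95% interval of 1.41 to 2.12, and the gene ranked 47 of 19937 by p. It did not pass over all genes (unadjusted p = 2.15e-04, adjusted p = 0.0885 from limma). With any 1 array left out the log2FC stayed between 0.72 and 0.86 and the adjusted p between 0.0929 and 0.315. T-cadherin is also known from endothelial cells, whose 8 markers had a mean signal of 5.52 to 5.63 on the N arrays and 5.53 to 5.68 on the K arrays.

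Cdh2 encodes N-cadherin, the main classical cadherin of neural precursors and the core of their adherens junctions. It lies on chromosome 18 from 16588877 to 16809246. Its values were 9.22, 9.22 and 9.39 on the N arrays and 9.77, 9.84 and 9.72 on the K arrays. All 3 N arrays were below all 3 K arrays, with means of 9.28 ± 0.10 and 9.78 ± 0.06 (SD, n = 3 each). The log2FC of -0.50 (standard error 0.12) is a 1.42-fold lower value with N, with a 95% interval of 1.18 to 1.70. It did not pass over all genes (unadjusted p = 0.00222, adjusted p = 0.252 from limma). The log2FC stayed between -0.56 and -0.47 with any 1 array left out. Nes, the intermediate filament gene of precursors, had -0.53 (standard error 0.16), whereas Sox2 had 0.25 and Vim 0.44, so the precursor markers did not share a sign.

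The other 4 type I cadherins were Cdh1, Cdh3, Cdh4 and Cdh15, known as E-, P-, R- and M-cadherin. Cdh4, which is found in brain beside N-cadherin, had 8.53, 8.15 and 8.39 on the N arrays and 8.66, 8.62 and 8.58 on the K arrays. The groups did not overlap, but N replicate 1 lay close to the lowest K array. The log2FC was -0.27 (standard error 0.13, 95% interval -0.57 to 0.04), and it did not pass (adjusted p = 0.646 from limma). Without N replicate 1 it was -0.35 and without N replicate 2 it was -0.16. The epithelial genes Cdh1 and Cdh3 and the muscle gene Cdh15 lay below the median signal, with log2FC of 0.07, -0.16 and -0.01. Under quantile normalization, cyclic loess normalization or centring on the median the Cdh15 value took the other sign.

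Pcdh15 encodes the protocadherin that forms the tip links of hair cells in the inner ear together with the product of Cdh23, and its transcripts are also known from oligodendrocyte precursors. The values of its cluster with the higher mean over all arrays were 7.00, 6.75 and 6.82 on the N arrays and 6.13, 6.28 and 6.20 on the K arrays. Its mean was above that of the other Pcdh15 cluster with N (6.86 against 6.44) and below it with K (6.20 against 6.37). The choice of this cluster therefore rested on the group in which it was high. Every N array lay above every K array, with means of 6.86 ± 0.13 and 6.20 ± 0.07 (SD, n = 3 each). The log2FC of 0.65 (standard error 0.12) is a 1.57-fold difference with a 95% interval of 1.30 to 1.91. It did not pass over all genes (unadjusted p = 5.68e-04, adjusted p = 0.133 from limma). A second transcript cluster named for Pcdh15 alone did not show the difference. Its values were 6.49, 6.35 and 6.47 on the N arrays and 6.37, 6.21 and 6.52 on the K arrays. In a fit over all clusters with 1 symbol its log2FC was 0.07 (standard error 0.13), and its groups overlapped. With the mean of both clusters the log2FC was 0.36. The 7 measured markers of the oligodendrocyte lineage had a mean signal of 7.66 to 7.69 on the N arrays and 7.70 to 7.80 on the K arrays, and 0 of the 7 had an unadjusted p under 0.05. The precursor markers among them, Pdgfra and Cspg4, had log2FC of -0.13 and -0.31. Cdh23, on the same chromosome and the partner of Pcdh15 in the tip link, lay below the median signal, with a log2FC of 0.09 (standard error 0.14).

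**Figure D2:**
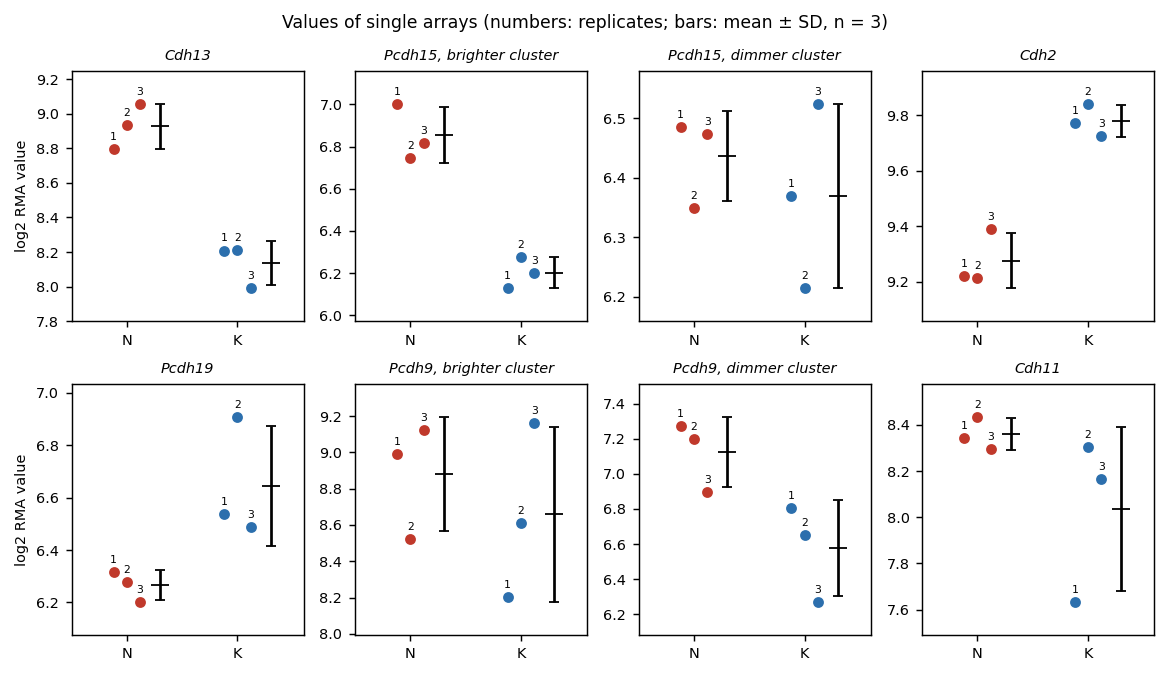
Log2 RMA values (vertical axes, each with its own range) of single arrays for Cdh13, Cdh2, Pcdh19, Cdh11 and both clusters of Pcdh15 and Pcdh9, with replicate numbers beside the points and bars for mean ± SD (n = 3). The groups are apart in the Pcdh15 cluster labelled brighter (means 6.86 and 6.20), whose mean is the higher of the pair with N only. They overlap in the other Pcdh15 cluster, while in Pcdh9 they are apart in the dimmer cluster only.

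The delta-2 protocadherins Pcdh8, Pcdh10, Pcdh17, Pcdh18 and Pcdh19 are neural adhesion proteins. The human PCDH19 gene is mutated in a form of epilepsy, and the mouse gene lies at chrX:133582860-133689044. Pcdh19 had 6.31, 6.28 and 6.20 on the N arrays and 6.54, 6.91 and 6.49 on the K arrays. All N arrays were below all K arrays, and K replicate 2 stood above the other K arrays. The log2FC was -0.38 (standard error 0.14, unadjusted p = 0.0270, adjusted p = 0.513 from limma), a 1.30-fold lower value with N with a 95% interval of 1.04 to 1.63. Without K replicate 2 the log2FC was -0.25. Pcdh8, known in rat as arcadlin and induced there by neuronal activity in the hippocampus, had 5.33, 5.52 and 5.57 on the N arrays and 5.92, 5.73 and 5.63 on the K arrays. Its groups did not overlap but lay close, and its log2FC of -0.29 (standard error 0.13) did not pass (adjusted p = 0.616 from limma). Pcdh10, whose product binds the WAVE complex, had 8.37, 8.31 and 8.59 on the N arrays and 8.19, 8.53 and 8.58 on the K arrays. Its groups overlapped, with a log2FC of -0.01 and a 95% interval of -0.35 to 0.33, and its sign turned with arrays centred on the median. Pcdh17, a gene of synaptic contacts, had 0.02, whose sign turned under quantile and cyclic loess normalization, with an interval of -0.55 to 0.60, and Pcdh18 had -0.21 (standard error 0.21), which became -0.45 without N replicate 3 and -0.05 without N replicate 2.

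The delta-1 protocadherins measured were Pcdh1, Pcdh7 and Pcdh9. Pcdh1 had 5.43, 5.49 and 5.58 on the N arrays and 6.07, 5.61 and 5.62 on the K arrays. Its groups did not overlap, but only K replicate 1 stood well above the N arrays, and without it the log2FC was -0.12 in place of -0.27. Pcdh7 had 7.83, 7.78 and 8.26 on the N arrays and 8.10, 8.11 and 8.26 on the K arrays. N replicate 3 lay at the level of the highest K array, and the log2FC was -0.20 (standard error 0.15), which became -0.35 without that array and -0.11 without N replicate 2. Pcdh9 had a pair of clusters that differed. The brighter one spread widely, from 8.53 to 9.12 on the N arrays and from 8.20 to 9.16 on the K arrays, with a log2FC of 0.22 (standard error 0.25). The dimmer one had 7.27, 7.20 and 6.90 on the N arrays and 6.80, 6.65 and 6.27 on the K arrays, with no overlap. Its log2FC was 0.55 (standard error 0.17), and it did not pass (unadjusted p = 0.0136, adjusted p = 0.433 from limma over all clusters with 1 symbol). Pcdh12, which is also known as VE-cadherin-2 and is found in endothelium, had -0.21 (standard error 0.17), and Pcdh20 had 0.26 (standard error 0.17). Without N replicate 1 the value of Pcdh12 was -0.05 and without N replicate 2 it was -0.33, while that of Pcdh20 was 0.06 without K replicate 2 and 0.40 without K replicate 3. Both genes lay below the median signal.

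**Figure D3:**
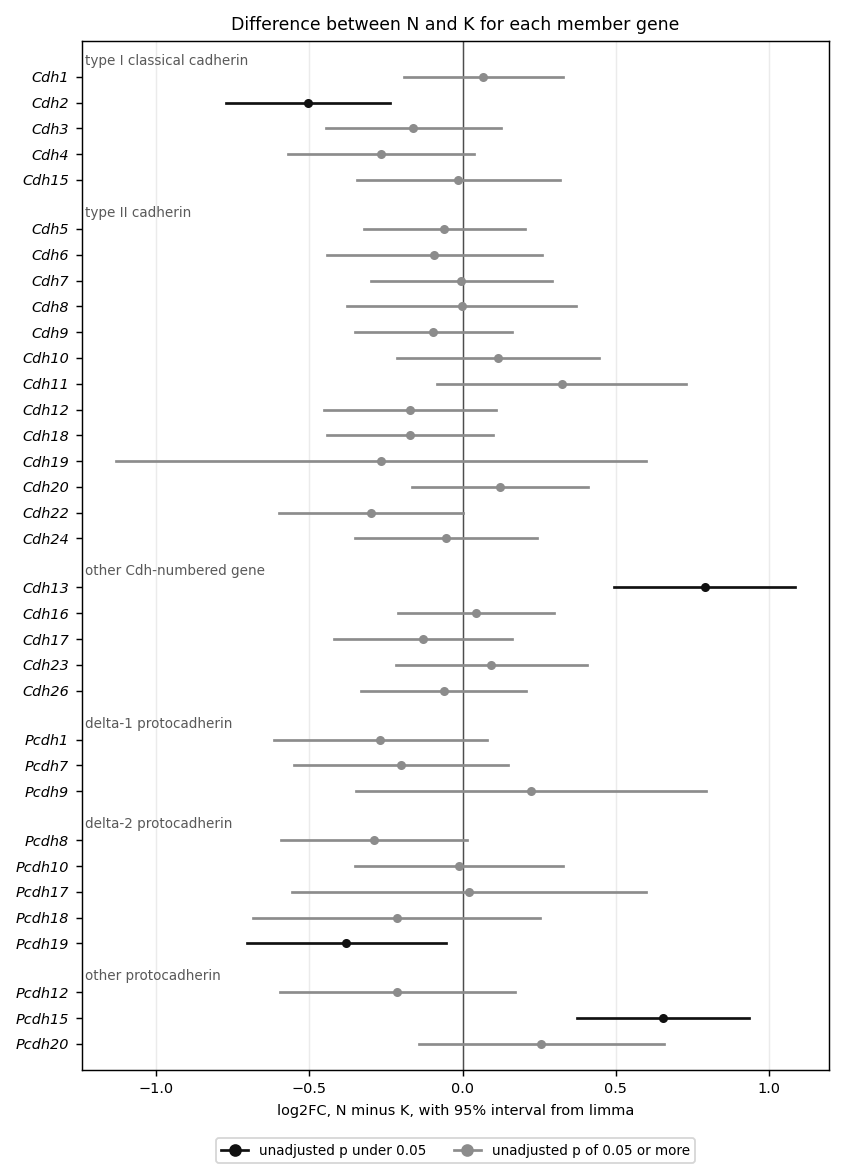
The log2FC of each of the 34 genes on the horizontal axis (N minus K), grouped by class, as points with 95% intervals from limma, black where the unadjusted p is under 0.05. The 4 black intervals are those of Cdh2, Cdh13, Pcdh19 and Pcdh15, and the widest interval is that of Cdh19, from -1.13 to 0.60.

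Type II cadherins made up the largest class, with 13 genes and a median log2FC of -0.06. None had an unadjusted p under 0.05, 7 lay above the median signal, and 10 had an interval within -0.5 and 0.5. Cdh22, a cadherin of brain, had 6.94, 6.66 and 6.84 on the N arrays and 7.25, 7.02 and 7.07 on the K arrays. All N arrays were below all K arrays, and the log2FC of -0.30 (standard error 0.13) had an unadjusted p = 0.0501 and an adjusted p = 0.585 from limma. Cdh11, a cadherin of mesenchymal cells and of brain, had 8.35, 8.43 and 8.30 on the N arrays and 7.64, 8.31 and 8.17 on the K arrays. The lowest value, on K replicate 1, lay far from the other 5, and without that array the log2FC was 0.12 in place of 0.32 (standard error 0.18). The 8 markers of pericytes, fibroblasts and meninges had a mean signal of 6.04 to 6.10 on the N arrays and 6.02 to 6.20 on the K arrays, which overlap. A further 3 clusters carry Cdh11 together with a pair of other symbols and were not used. Their differences were -0.24, 0.02 and 0.22.

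Cdh6, Cdh10, Cdh19, Cdh20 and Cdh24 were the other type II genes above the median signal. Cdh20 had 9.96 to 10.22 on the N arrays and 9.87 to 10.06 on the K arrays, and its log2FC was 0.12 with a 95% interval of -0.17 to 0.41. Cdh10 had 0.12 (-0.21 to 0.45), Cdh6 -0.09 (-0.44 to 0.26) and Cdh24 -0.05 (-0.35 to 0.24). The groups of all 4 overlapped, and each interval lay within -0.5 and 0.5. Cdh19, known from glial precursors of the peripheral nervous system, was the most variable member. It ran from 6.19 to 7.16 on the N arrays and from 6.43 to 7.90 on the K arrays, with a log2FC of -0.27 (standard error 0.38). Without K replicate 2 its log2FC was 0.14 and without N replicate 3 it was 0.05. Cdh5 (VE-cadherin, the endothelial member), Cdh7, Cdh8, Cdh9, Cdh12 and Cdh18 lay below the median signal. Their log2FC ran from -0.17 for Cdh12 and Cdh18 to -0.003 for Cdh8, and those of Cdh7 and Cdh8 took the other sign under each of the 3 other normalizations. A second, dimmer cluster of Cdh18 had 0.05, and one of Cdh24 had -0.02. Cdh9 is known from the mossy fibre synapses of the hippocampus, and its signal was 3.52 to 3.74 over all 6 arrays. Of the Cdh genes of neither class, the kidney and gut genes Cdh16 and Cdh17 had 0.04 and -0.13 and Cdh26 had -0.06, all below the median signal.

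Many of these genes are neighbours in the genome. On chromosome 15 the type II genes Cdh6, Cdh9, Cdh10, Cdh12 and Cdh18 follow each other between 13028699 and 23477491 on GRCm38, with 0 other protein-coding genes lying wholly between neighbours in the RefSeq annotation. Their log2FC ran from -0.17 to 0.12, and the interval of each of the 5 lay within -0.5 and 0.5. On chromosome 8, Cdh8 and Cdh11 follow each other with 0 coding genes between them, and Cdh3 and Cdh1 lie 46438 bases apart. The 8 members on chromosome 8 ran from -0.16 (Cdh3) to 0.79 (Cdh13), with 4 positive and 4 negative values, and the nearest members to Cdh13, Cdh1 and Cdh15, had 0.07 and -0.01. On chromosome 14, Pcdh8, Pcdh17, Pcdh20 and Pcdh9 follow each other with 1, 2 and 0 coding genes between neighbours and had -0.29, 0.02, 0.26 and 0.22. Of the 3 members on chromosome 18, Cdh2 had -0.50, and Pcdh1 and Pcdh12, with 55043 bases and 1 coding gene between them, had -0.27 and -0.21.

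The lists of partners were 13 catenins and actin linkers, 8 measured genes of the WAVE complex, 8 of the sheddases and gamma-secretase subunits that cut cadherins, 6 repressors of Cdh1 and 4 nectins. None of these genes passed over all genes in limma. Of the catenins and linkers, 2 of 13 (15.4%) had an unadjusted p under 0.05, against 8.54% of all genes, and both were lower with N (3.89% of all genes). Ctnna1, which encodes alpha-catenin and joins the cadherin complex to actin, had 7.43, 7.32 and 7.22 on the N arrays and 7.66, 7.94 and 7.61 on the K arrays. Its groups did not overlap, and its log2FC was -0.41 (standard error 0.14, adjusted p = 0.436 from limma). Lima1, whose product binds alpha-catenin and actin filaments, had -0.45 (standard error 0.17, adjusted p = 0.518 from limma). The median over the 13 was -0.08. Ctnnb1, for beta-catenin, had -0.19, and Ctnnd1, for p120-catenin, which steadies cadherins at the membrane, had 0.03, and neither had an unadjusted p under 0.05. In the WAVE list 0 genes had an unadjusted p under 0.05, and the median was -0.11. Among the sheddases and gamma-secretase subunits only Ncstn, a subunit of gamma-secretase, did, with -0.35 (standard error 0.13, adjusted p = 0.497 from limma), and Adam10, the sheddase of N-cadherin, had -0.11. The repressors Snai1, Snai2, Zeb1, Zeb2, Twist1 and Twist2 all had negative values, from -0.27 to -0.04. Over all genes 11372 of 19937 values were negative, with a median of -0.03. Of the 6 repressors 0 had an unadjusted p under 0.05. The nectins had -0.05 to 0.11.

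The last list held 22 measured cadherin relatives with other names, the FAT, CELSR, calsyntenin and desmosomal genes among them. Of these 4 (18.2%) had an unadjusted p under 0.05, against 8.54% of all genes, 3 of them lower with N (3.89% of all genes) and 1 higher (4.64%). Pcdh11x, the X-linked delta-1 protocadherin, had 7.80, 7.82 and 7.61 on the N arrays and 8.40, 8.86 and 8.39 on the K arrays. Every N array was below every K array, and the log2FC of -0.81 (standard error 0.16) is a 1.75-fold lower value with N with a 95% interval of 1.36 to 2.24. It did not pass over all genes (adjusted p = 0.154 from limma). Fat1, a giant cadherin, had -0.38 (standard error 0.13), Cdhr2, a cadherin of brush borders with a dim signal, had -0.36 (standard error 0.11), and the desmosomal gene Dsc2 had 0.44 (standard error 0.16). The median over the 22 was -0.04, near that of all genes.

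**Figure D4:**
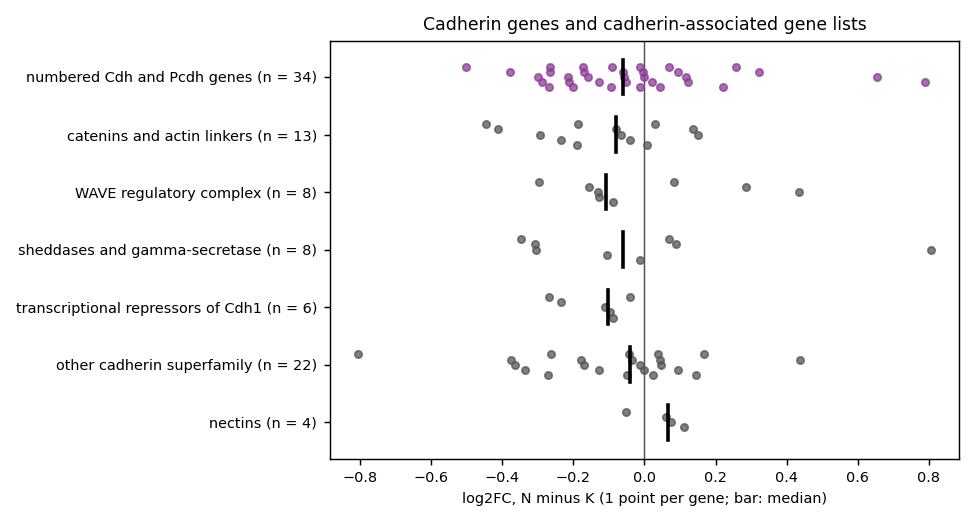
Log2FC of N minus K (horizontal axis) with 1 point per gene for the 34 numbered Cdh and Pcdh genes and the 6 lists of related genes, and a black bar at each median. The medians run from -0.11 to 0.07, and the points farthest out are Cdh13 at 0.79 and Psenen, a gamma-secretase subunit with overlapping groups, at 0.81 on the right and Pcdh11x at -0.81 on the left.

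How far the 4 leading genes depended on the processing was read from the other settings. Cdh13 and Cdh2 had an unadjusted p under 0.05 in all 6 limma fits with 1 array left out and in all 9 other settings. These include the ordinary linear model, whose p came without the moderation of limma. Pcdh15 did so in all 6 and in each setting except that of its second cluster. Pcdh19 did so in 3 of the 6, since its p was above that without N replicate 2, without N replicate 3 and without K replicate 2, and it missed with cyclic loess normalization. At an adjusted p under 0.05 none of the 34 genes passed in any of these fits.

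**Figure D5:**
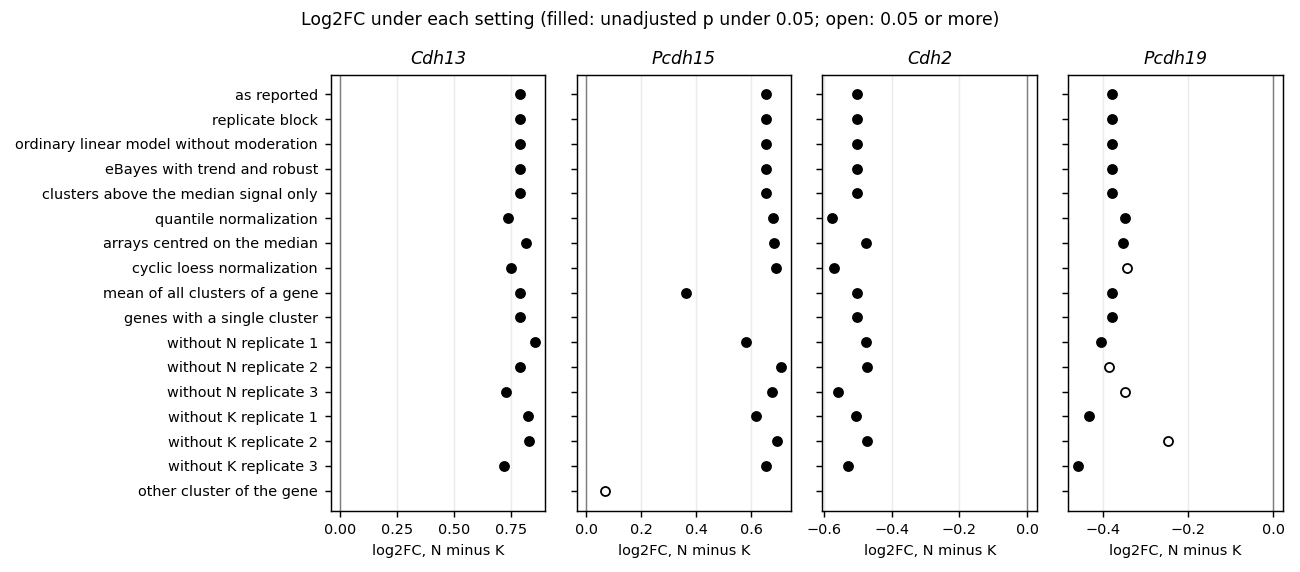
Log2FC of N minus K (horizontal axes, each with its own range) of Cdh13, Pcdh15, Cdh2 and Pcdh19 under each setting (vertical axis), filled where the unadjusted p is under 0.05. Cdh13 stays between 0.72 and 0.86, Pcdh15 falls to 0.07 in its second cluster, and Pcdh19 has 4 open points.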

How the data were processed

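The values were made by the authors, who used RMA within Partek Genomics Suite (background correction, normalization between arrays and 1 log2 value per transcript cluster). Versions and settings are not given in the sources used here. The deposited log2 values lie between 1.57 and 14.14 and were used as they stand, with no filter on dim clusters. All 6 columns were matched to samples by accession, and groups follow the sample labels.

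Clusters were named by the array annotation. Of 34760 clusters, 21640 had exactly 1 symbol and 1321 had several. Where a symbol had several clusters, the brightest on average stood for the gene, leaving 19937 genes, and 4 of the 34 members had more than 1 cluster. All 34 symbols matched the RefSeq table of GRCm38.p6 by gene ID. The comparison of N with K used lmFit and eBayes of limma 3.58.1 under R 4.3.3 (no further terms, two-sided, 4 residual and 4.59 prior degrees of freedom). P-values were adjusted by Benjamini-Hochberg and read at 0.05. The fit was tested on simulated data. Signals of different clusters do not rank genes by abundance, and the number of arrays limits the precision.

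The members, lists and tests were chosen with earlier results of these data known. Array values are given for members with an unadjusted p under 0.05, the 8 with the largest log2FC in size, and Cdh2, Cdh4, Cdh11, Cdh13, Pcdh7 and Pcdh10. Values of Cdh19, Cdh20, Cdh9, Pcdh9 and the second clusters, and the list genes beyond the 4 with the smallest p in a list, were added after they were seen. Alternatives tried were a term for the replicate number, no moderation, trend and robust eBayes, a filter on dim clusters, 3 normalizations, 2 ways of taking clusters, the other cluster of a gene (chosen after seeing the data), and each array left out. Promoters came from RefSeq. Figures were drawn with matplotlib 3.10.9.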

Additional observations from a re-analysis of the deposited data

How the results depend on the processing

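None of the 34 members passed at an adjusted p under 0.05 in any setting. In the settings that keep all arrays 4 to 6 had an unadjusted p under 0.05, against 7.03% to 10.1% of the genes tested. The 10.1% is from the filter on dim clusters, which kept 11218 genes and 17 members, 4 of them with such a p. With 1 array left out 3 to 6 members had such a p, against 6.27% to 14.6% of all genes. The highest share was without K replicate 2, where 5 members had it. The median log2FC of the members stayed between -0.11 and -0.03. The number of genes called over all genes, 31 (24 higher and 7 lower with N), moved more: 1 in the ordinary linear model, 12 with quantile normalization (7 higher, 5 lower), 12 with cyclic loess normalization (8 higher, 4 lower), 3 with arrays centred on the median (2 higher, 1 lower), and 0 to 21 with 1 array left out, being 0 when K replicate 1, N replicate 1 or N replicate 2 was dropped. The cause was not tested. With the replicate number as a block it was 41, and 0 members passed. Whether the number marks a pair is not stated. Deviations of arrays with the same number correlated at 0.04, 0.04 and 0.12, and not every array correlated best with its own number.

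Of 493 member values under other settings 36 took the other sign, all in members with a log2FC of at most 0.27 in size. With quantile normalization these were Cdh15 (0.024), Cdh7 (0.039), Cdh8 (0.064) and Pcdh17 (-0.036), with arrays centred on the median Cdh15 (0.014), Cdh7 (0.022), Cdh8 (0.024) and Pcdh10 (0.014), and with cyclic loess normalization Cdh15 (0.038), Cdh7 (0.056), Cdh8 (0.079) and Pcdh17 (-0.029). The second cluster of Cdh18, an alternative added after seeing the data, gave 0.050. With 1 array left out the range was -0.11 to 0.12 for Cdh15, -0.11 to 0.049 for Cdh7, -0.17 to 0.10 for Cdh8, -0.14 to 0.062 for Pcdh10, -0.14 to 0.30 for Pcdh17, -0.59 to 0.14 for Cdh19, -0.12 to 0.023 for Cdh24, -0.20 to 0.020 for Cdh6, -0.026 to 0.17 for Cdh23 and -0.0049 to 0.47 for Pcdh9.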
